A study of Rattus norvegicus with 12 samples.

Results

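Complement genes were followed in pubocaudalis, a muscle of the rat pelvic floor, after simulated birth injury (SBI) with and without lactation. The set was chosen by gene symbol and names 9 genes: C1qa, C1qb, C1qc, C1s, C2, C3, C3ar1, C5ar1 and Cfb. Of these, 7 have a row of that symbol among the 30206 genes of the count table, and all 7 passed the low-count filter that left 14599 genes to test. C2 and C5ar1 have no row of that symbol and were not analysed here. Messenger RNA was sequenced in 4 groups of 3-month-old female Sprague-Dawley rats, all pregnant when a balloon of 10 mL distended the vagina. In the 1wk SBI and 3wk SBI groups the pups were taken away after delivery, and the muscle was harvested 1 or 3 weeks after the injury. In the 1wk SBI + Lac and 3wk SBI + Lac groups the dams kept nursing their pups until the same harvest times. Every group carries the injury and a delivery, so no comparison is with uninjured muscle. Each library holds the pooled RNA of 2 rats, giving 3 libraries per group and 12 in all, and every n counts libraries.

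Complement is a cascade of blood and tissue proteins that tags debris and microbes. C1q, built from the chains of C1qa, C1qb and C1qc, binds tagged surfaces and dying cells, and in most tissues macrophages are its main source. C1s is the protease that C1q carries and it cuts C4 and C2, C3 is the central protein on which all routes meet, and factor B (Cfb) drives the alternative route that amplifies C3 cleavage. Fibroblasts and other stromal cells, as well as liver, make C1s, C3 and Cfb. C3ar1 encodes the receptor for the C3a fragment released from C3, carried mainly by myeloid cells. After muscle injury, macrophages clear dead fibers and the complement genes they express are part of that phase.

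Total counts per library ran from 30862144 to 51662983 at 1 week and from 10082734 to 75634391 at 3 weeks, and at 1 week each non-lactating library was deeper than each lactating one. The 1-week values are whole counts and the 3-week values have decimals, in 26.6% to 44.0% of genes by library, so comparisons between weeks mix time with the way reads were counted. Values are given as normalized CPM, library-size-scaled counts after TMM adjustment, which is comparable between libraries for 1 gene but not between genes, since transcript length is not taken into account. Replicate 3 of 3wk SBI, the deepest library, stood apart. It had the highest level of its group for all 7 complement genes, a summed macrophage marker level of 981 normalized CPM against 436 and 470 in the other two libraries, and a summed fibroblast marker level of 8638 against 3889 and 4019. Lactation differences of the 7 genes at 3 weeks are therefore given with and without it.

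Promoter sequence was on hand in RefSeq (GRCr8) for 4 of the 9 genes, and the 250 bases before the start are shown for C1qa and C1qb, a pair of C1q chains whose levels moved together, for C3, whose level scattered most, and for C3ar1, whose level differed with lactation. All 4 lie on the minus strand and are printed 5′ to 3′ on that strand. Capitals mark matches to GGAAGT (the ETS core bound by PU.1-type factors), TTGCNNAA (C/EBP), TTCNNNGAA (STAT), and to an interferon response motif of GAAA, any 2 bases and GAAA, searched on both strands. These motifs were chosen after the sequences were seen.
C1qa, chr5:154419934-154420183: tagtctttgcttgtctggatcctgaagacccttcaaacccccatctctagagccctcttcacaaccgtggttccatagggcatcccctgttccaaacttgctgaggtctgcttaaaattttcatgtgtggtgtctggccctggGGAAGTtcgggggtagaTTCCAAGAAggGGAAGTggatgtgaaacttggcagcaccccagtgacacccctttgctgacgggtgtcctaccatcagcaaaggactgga
C1qb, chr5:154407828-154408077: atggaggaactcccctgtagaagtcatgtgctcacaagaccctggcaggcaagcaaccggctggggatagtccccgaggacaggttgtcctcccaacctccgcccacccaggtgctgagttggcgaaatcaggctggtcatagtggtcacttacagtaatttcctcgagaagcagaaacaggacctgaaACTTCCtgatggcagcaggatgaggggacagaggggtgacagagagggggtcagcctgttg
C3, chr9:2201340-2201589: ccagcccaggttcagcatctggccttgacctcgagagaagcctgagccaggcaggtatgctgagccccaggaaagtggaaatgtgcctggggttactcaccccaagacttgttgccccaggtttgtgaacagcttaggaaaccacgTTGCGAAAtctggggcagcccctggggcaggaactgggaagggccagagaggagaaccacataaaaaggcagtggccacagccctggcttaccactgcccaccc
C3ar1, chr4:157756531-157756780: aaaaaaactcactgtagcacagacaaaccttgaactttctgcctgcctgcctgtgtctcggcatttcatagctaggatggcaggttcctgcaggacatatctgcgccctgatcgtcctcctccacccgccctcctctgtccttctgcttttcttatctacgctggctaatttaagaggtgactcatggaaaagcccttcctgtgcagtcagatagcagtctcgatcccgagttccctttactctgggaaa
The C1qa window held the ETS core at -107 and -79 from the start, and a STAT match at -90 lies between them. The C1qb window held the ETS core once, at -61 on the other strand, and the C3 window held a C/EBP match at -104. None of the 4 motifs was found in the C3ar1 window. Among 33469 promoter windows of the same length, 19.2% hold the ETS core, 9.22% the C/EBP motif, 7.67% the STAT motif and 3.41% the interferon response motif, so such matches are common, and they are descriptions of letters, not of bound factors. In the same RefSeq assembly C1qb, C1qc and C1qa follow one another along the chromosome, C1s lies next to C1r and Cfb next to C2.

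Lactation was compared first. Levels of all 7 complement genes averaged lower with lactation than without it at both 1 and 3 weeks, but for 6 of the 7 the libraries of the groups overlapped and the difference did not pass the test. The exception was C3ar1, which fell to less than 50% of its non-lactating level at 3 weeks and lay lower by a like factor at 1 week without passing the adjusted threshold. A gene was called where edgeR's quasi-likelihood test gave an adjusted p under 0.05 and the log2 fold change exceeded 1 in size. At 1 week 0 of the 7 genes were called, where 0.253% of all genes tested were, and 1 of the 7 had an unadjusted p under 0.05, where 18.9% of all genes did. At 3 weeks 1 of the 7 was called, against 0.74% of all genes tested, and 1 had an unadjusted p under 0.05, against 21.1%. The median log2 fold change, lactating over non-lactating, was -0.47 over the 7 genes at 1 week and -0.33 at 3 weeks, beside -0.0038 and -0.0192 over all genes tested. The 3-week direction rested on replicate 3 of 3wk SBI for most of the 7. Without it the values of C1qa, C1qb, C1qc, C1s and C3 were 0.09, 0.19, 0.20, 0.01 and 1.498, and only Cfb and C3ar1 stayed below 0. A log2 fold change below 0 was seen in 50.5% of all genes at 1 week and 52.3% at 3 weeks. The 7 genes are not independent of one another. In whole muscle, fewer cells of a type and less RNA per cell cannot be told apart.

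**Figure D1:**
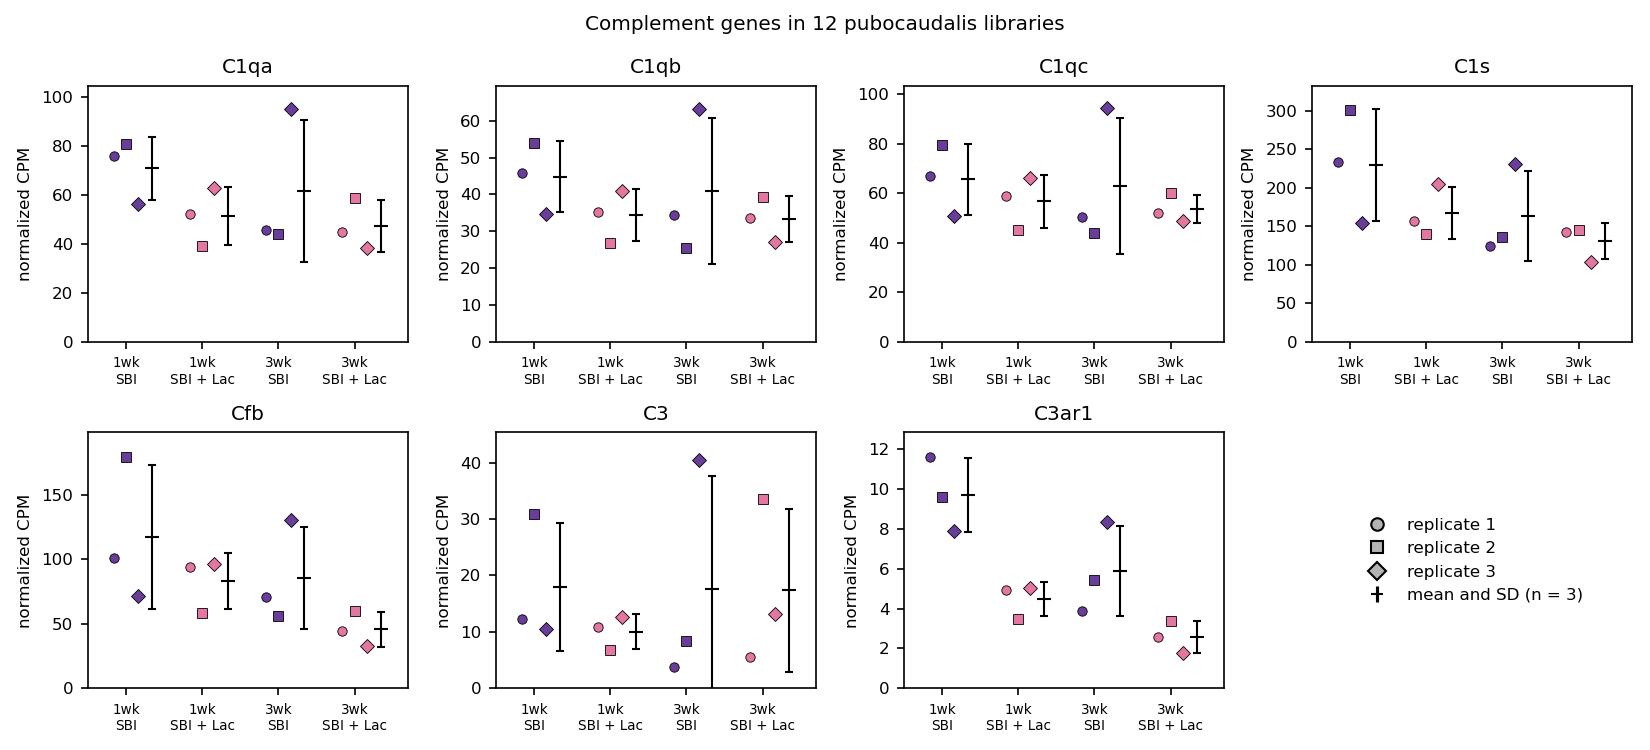
Normalized CPM of the 7 complement genes in each of the 12 libraries (vertical axis from 0), with non-lactating groups in purple, lactating groups in pink, the replicate by symbol, and the mean and SD of 3 libraries as a dash with a bar (the lower SD bar of C3 in 3wk SBI is cut at 0). C3ar1 is the gene whose lactating libraries lie below all non-lactating ones at both weeks, and the diamond of 3wk SBI, replicate 3, tops its group in every panel.

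The C1q chains stand first in the cascade. C1qa (ENSRNOG00000012807), the A chain, measured 75.6, 80.7 and 56.3 normalized CPM in the 1wk SBI libraries and 52.0, 39.0 and 62.9 in 1wk SBI + Lac. At 3 weeks it measured 45.8, 43.8 and 95.1 in 3wk SBI, against 44.6, 58.8 and 38.1 in 3wk SBI + Lac. The highest lactating library exceeded the lowest non-lactating library at both weeks, and 1 library made most of the 3-week spread. The log2 fold change was -0.47 (SE 0.30, adjusted p = 0.420) at 1 week and -0.39 (SE 0.30, adjusted p = 0.489) at 3 weeks. The 95% interval ran from -1.12 to 0.19 at 1 week and from -1.06 to 0.27 at 3 weeks, so both no change and a fall of 50% lie inside the intervals. Without replicate 3 of 3wk SBI the 3-week value turned to 0.09.

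C1qb (ENSRNOG00000012749), the B chain, averaged 44.9 ± 9.67 normalized CPM (SD, n = 3) in 1wk SBI, against 34.3 ± 7.04 (SD, n = 3) in 1wk SBI + Lac. In 3wk SBI it averaged 41.0 ± 19.8 (SD, n = 3), with libraries from 25.4 to 63.2, and in 3wk SBI + Lac 33.3 ± 6.14 (SD, n = 3). These groups overlapped at each week. Lactation gave a log2 fold change of -0.39 (SE 0.30, adjusted p = 0.516) at 1 week and -0.31 (SE 0.31, adjusted p = 0.600) at 3 weeks, the latter turning to 0.19 without replicate 3 of 3wk SBI. C1qc (ENSRNOG00000012804), the C chain, differed least of the 3 with lactation, at -0.21 (SE 0.26, adjusted p = 0.698) and -0.24 (SE 0.27, adjusted p = 0.642). At 1 week its libraries lay between 50.8 and 79.4 normalized CPM without lactation and between 45.1 and 66.3 with it, and at 3 weeks between 44.0 and 94.4 without and between 48.9 and 60.2 with it. Without replicate 3 of 3wk SBI its 3-week log2 fold change was 0.20.

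The mix of the 3 chains was described by their shares of the counts. C1qa held between 33.4% and 40.2% of the summed C1q counts of a library, C1qb between 22.5% and 26.3% and C1qc between 35.5% and 42.8%. At 1 week the C1qa share was 40.2%, 37.7% and 39.7% without lactation and 35.6%, 35.2% and 37.0% with it. The C1qc share was 35.5%, 37.1% and 35.8% without and 40.3%, 40.6% and 39.0% with lactation. The lactating libraries thus all held a smaller C1qa share and a larger C1qc share at 1 week, and a C1qb share that was lower by a narrow margin (24.06% to 24.24% against 24.32% to 25.22%). At 3 weeks the shares of all 3 chains overlapped, and no test was made of them. Over the 12 libraries, with the mean of each week removed, log2 levels of C1qa correlated with those of C1qb at Pearson's r = 0.97 and with those of C1qc at 0.94. These points share library depth and cell make-up, so the values are a description.

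C1s (ENSRNOG00000011971), the protease of the C1 complex, measured 233, 301 and 155 normalized CPM in 1wk SBI, against 157, 139 and 205 in 1wk SBI + Lac. At 3 weeks the libraries held 124, 136 and 231 without lactation and 143, 145 and 104 with lactation. Both pairs of groups overlapped, with log2 fold changes of -0.46 (SE 0.27, adjusted p = 0.384) at 1 week and -0.33 (SE 0.27, adjusted p = 0.526) at 3 weeks, and without replicate 3 of 3wk SBI the second value was 0.01.

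Cfb (ENSRNOG00000051235), factor B of the alternative route, overlapped between groups at both weeks. Its libraries held 101, 179 and 71.8 normalized CPM in 1wk SBI, against 94.3, 58.1 and 96.8 in 1wk SBI + Lac. At 3 weeks they held 70.5, 55.8 and 131 without lactation and 44.6, 59.8 and 32.5 with it, and only the highest lactating library reached into the range of the non-lactating group. For Cfb the log2 fold change was -0.50 (SE 0.41, adjusted p = 0.543) at 1 week and -0.90 (SE 0.42, adjusted p = 0.253) at 3 weeks, with a 95% interval at 3 weeks from -1.84 to 0.03. Leaving out 1 library of that week gave values from -1.15 to -0.44, the last without replicate 3 of 3wk SBI.

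C3 (ENSRNOG00000046834), the central component, scattered most between libraries of the same group. In 1wk SBI it measured 12.3, 31.0 and 10.6 normalized CPM and in 1wk SBI + Lac 10.8, 6.71 and 12.7. At 3 weeks it measured 3.75, 8.42 and 40.5 in 3wk SBI, while in 3wk SBI + Lac it measured 5.50, 33.5 and 13.2. The SD was 114% of the mean in 3wk SBI, against 83.2% in 3wk SBI + Lac, and the largest such share for any other of the 7 genes was 48.2%, that of C1qb in 3wk SBI. The log2 fold change was -0.83 (SE 0.90, adjusted p = 0.659) at 1 week and -0.09 (SE 0.90, adjusted p = 0.969) at 3 weeks. Without replicate 3 of 3wk SBI the 3-week value was 1.498, so no direction with lactation was detectable for C3 at this spread.

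C3ar1 (ENSRNOG00000009211), the C3a receptor, was the one complement gene of the set whose libraries did not overlap. It measured 11.6, 9.58 and 7.90 normalized CPM in 1wk SBI, against 4.92, 3.49 and 5.04 in 1wk SBI + Lac. It measured 3.86, 5.45 and 8.34 in 3wk SBI, against 2.57, 3.40 and 1.76 in 3wk SBI + Lac. All lactating libraries lay below all non-lactating libraries of the same week, a pattern that 14.1% of all genes tested showed at 1 week and 10.4% at 3 weeks. The log2 fold change was -1.11 (SE 0.26, 95% interval -1.67 to -0.55, adjusted p = 0.0606) at 1 week and -1.17 (SE 0.28, 95% interval -1.77 to -0.57, adjusted p = 0.0423) at 3 weeks, folds of 0.464 and 0.444. Calls in the lower direction were made for 0.164% of all genes at 1 week and 0.534% at 3 weeks.

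The call on C3ar1 depended on the fit. At 1 week C3ar1 passed in DESeq2 on all 12 libraries (adjusted p = 0.00649) and in edgeR on the 1-week libraries alone (adjusted p = 0.0330). At 3 weeks it also passed in DESeq2 on all 12 libraries, in DESeq2 on the 6 of that week, with RLE scaling and without the low-count filter. It no longer passed in edgeR on the 3-week libraries alone (adjusted p = 0.0873) or with a block for the replicate number. Among the 6 fits that left out 1 library of that week it passed only without replicate 1 of 3wk SBI. Without replicate 3 of 3wk SBI the log2 fold change was -0.78 (adjusted p = 0.223, edgeR). Counts behind the values were low in the shallow libraries, 36 in replicate 1 of 3wk SBI and 16 in replicate 3 of 3wk SBI + Lac. The exact Poisson 95% interval of the first, 2.71 to 5.35 normalized CPM, overlapped that of replicate 2 of 3wk SBI + Lac, 2.95 to 3.89, and such intervals cover counting error only.

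By group mean C3ar1 ranked from 9.69 ± 1.85 normalized CPM (SD, n = 3) in 1wk SBI through 5.88 ± 2.27 (SD, n = 3) in 3wk SBI and then 4.48 ± 0.861 (SD, n = 3) in 1wk SBI + Lac to 2.58 ± 0.820 (SD, n = 3) in 3wk SBI + Lac. Libraries of 1wk SBI and 3wk SBI overlapped, as did those of 3wk SBI and 1wk SBI + Lac, while the lactating groups of the 2 weeks did not.

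**Figure D2:**
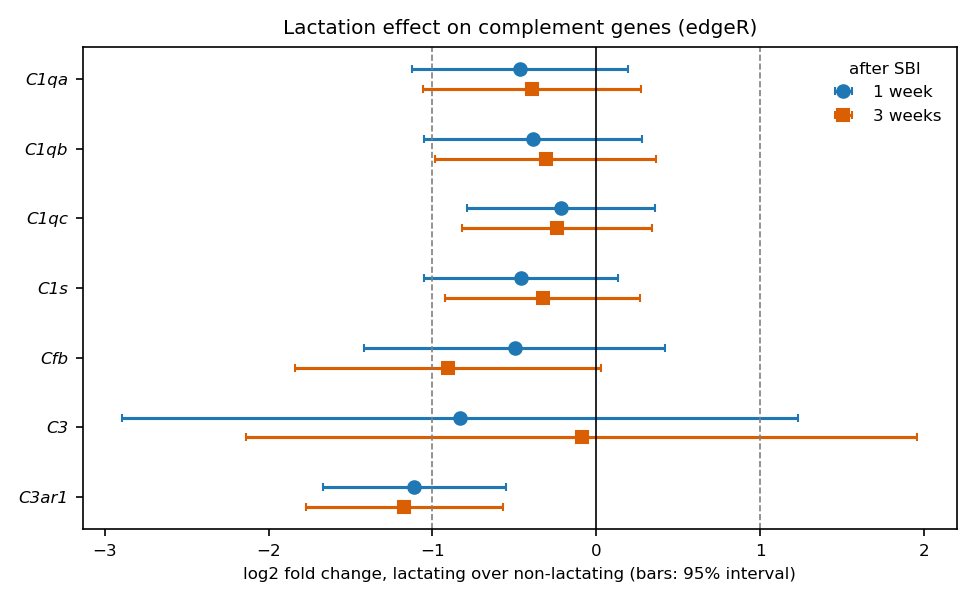
Log2 fold change of each complement gene, lactating over non-lactating (horizontal axis), at 1 week (blue circles) and 3 weeks (orange squares), with 95% intervals as bars and dashed lines at -1 and 1. The 2 intervals of C3ar1 end below 0, at -0.55 and -0.57, and all others reach past it.

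Whether the lactation effect differed between weeks was tested as the difference of the 2 effects. The difference ran from -0.40 for Cfb (SE 0.58) to 0.74 for C3 (SE 1.27) on the log2 scale, and was -0.06 for C3ar1 (SE 0.38, 95% interval -0.87 to 0.75). None was called (adjusted p = 0.999 for each of the 7, edgeR), where 0.00685% of all genes were, and 0 of the 7 had an unadjusted p under 0.05, where 4.42% of all genes did. DESeq2 on all 12 libraries also called 0 of the 7. For C1qa the 95% interval of the difference ran from -0.86 to 1.01, and differences inside that range were not detectable.

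Between 1 and 3 weeks, which also differ in counting, none of the 7 genes was called in edgeR without lactation (1.46% of all genes were) or with it (0.774% were). DESeq2 on all 12 libraries also called 0 of the 7 in both. One gene of the 7, C3ar1, had an unadjusted p under 0.05 in each case, as did 21.2% and 18.1% of all genes. Its log2 fold change, 3 weeks over 1 week, was -0.66 (SE 0.26, adjusted p = 0.162) without lactation and -0.72 (SE 0.28, adjusted p = 0.190) with lactation, where all 3-week libraries lay lower, as in 14.7% of all genes. Without replicate 3 of 3wk SBI the former was -1.03 (adjusted p = 0.0229) and passed both cutoffs. The C1q chains stayed within -0.19 to -0.03 in both, with SEs from 0.26 to 0.31. C1s gave -0.48 (SE 0.27, adjusted p = 0.341) without and -0.35 (SE 0.27, adjusted p = 0.533) with lactation.

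The macrophage-made C1q genes and the stromal components were then set against each other within each library, which removes library depth. C1qa stood at 32.5, 26.8 and 36.4 per 100 of C1s in 1wk SBI, against 33.1, 28.0 and 30.8 in 1wk SBI + Lac. It stood at 37.0, 32.3 and 41.2 in 3wk SBI, against 31.3, 40.4 and 36.8 in 3wk SBI + Lac. The ratio therefore overlapped between lactating and non-lactating libraries at both weeks, with means of 31.9 ± 4.82 against 30.6 ± 2.53 and 36.8 ± 4.46 against 36.2 ± 4.61 (SD, n = 3 each). Cfb over C1s averaged 49.8 ± 8.69 and 49.7 ± 9.34 per 100 at 1 week and 51.5 ± 9.03 and 34.6 ± 5.65 at 3 weeks (SD, n = 3 each), non-lactating first, with overlap at each week, at 3 weeks only because the highest lactating library (41.13) lay just above the lowest non-lactating one (41.1). These ratios carry no test.

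C3ar1 and C1qa, both known from myeloid cells, did not keep a fixed ratio. C3ar1 stood at 15.3, 11.9 and 14.02 per 100 of C1qa in 1wk SBI, against 9.46, 8.95 and 8.02 in 1wk SBI + Lac. At 3 weeks it stood at 8.43, 12.4 and 8.77 without lactation and at 5.77, 5.78 and 4.61 with it. All lactating libraries were below all non-lactating ones of the same week, and the means differed by a factor of 0.641 at 1 week and 0.545 at 3 weeks. Leaving out 1 library moved the log2 difference of this ratio between -0.74 and -0.55 at 1 week and between -0.96 and -0.68 at 3 weeks. Its sign could not turn in these fits, since the groups did not overlap.

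Single markers, chosen after their values were seen, placed each gene beside a partner. Csf1r is also among the genes that correlated most with C1qa, and C3ar1 was set only against Cd68. A ratio of C3ar1 to Csf1r was not formed. At 1 week the log2 fold change with lactation was -0.31 for Csf1r and -1.11 for C3ar1. C1qa over Csf1r, the receptor that macrophages need to survive, averaged 86.5 ± 9.48 and 77.8 ± 3.57 per 100 at 1 week and 85.3 ± 6.37 and 89.8 ± 10.8 at 3 weeks (SD, n = 3 each). C3ar1 over Cd68, a lysosomal protein of macrophages, averaged 33.2 ± 3.47 and 30.0 ± 0.517 per 100 at 1 week and 27.5 ± 4.31 and 25.5 ± 6.04 at 3 weeks (SD, n = 3 each). Both ratios overlapped between lactating and non-lactating libraries. C1qa over Cd68 did not: it averaged 245 ± 49.3 and 342 ± 24.7 per 100 at 1 week and 283 ± 53.4 and 470 ± 58.2 at 3 weeks (SD, n = 3 each), higher in all lactating libraries.

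**Figure D3:**
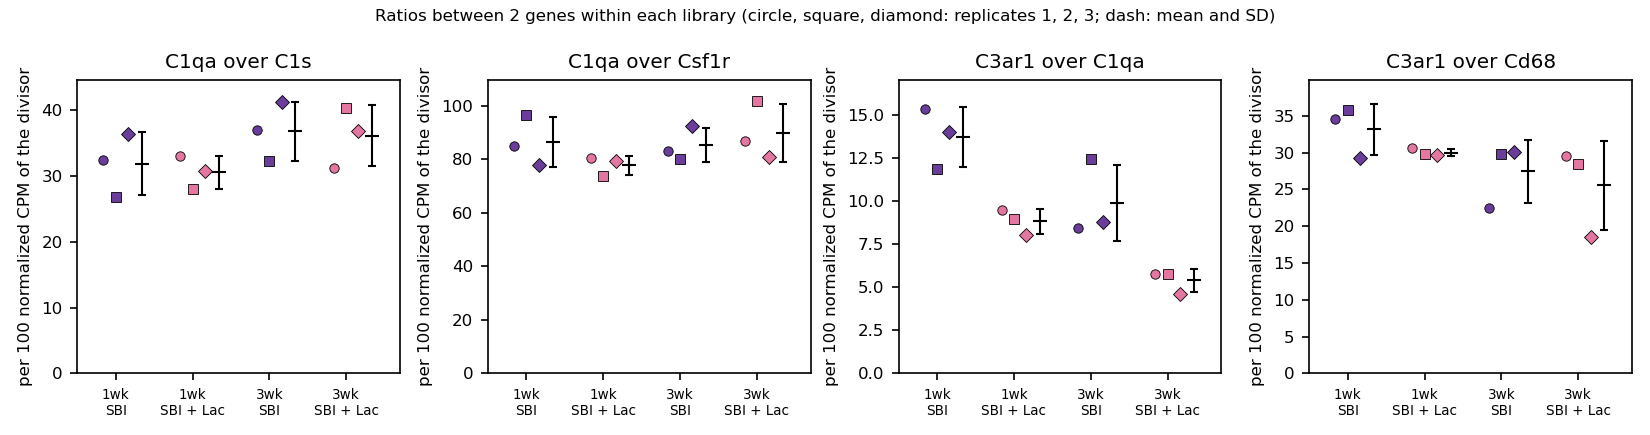
Ratios of normalized CPM within each of the 12 libraries, given per 100 of the divisor (vertical axes from 0), with the mean and SD of 3 libraries beside the points. C1qa over C1s and C1qa over Csf1r overlap between lactating and non-lactating libraries, C3ar1 over C1qa lies lower in lactating libraries at both weeks (means 8.81 against 13.7 and 5.39 against 9.88), and C3ar1 over Cd68 overlaps. C1qa over Cd68, which is not drawn, was higher in all lactating libraries of each week.

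Markers of the cells that could make these transcripts also averaged lower with lactation. Of 19 macrophage and monocyte markers tested, 18 averaged lower with lactation at 1 week and 19 at 3 weeks, with medians of -0.53 and -0.52. Of the 19, 0 were called in edgeR at 1 week and 1 at 3 weeks, beside 0.253% and 0.74% of all genes. An unadjusted p under 0.05 was seen in 5 and 9 of them, where 18.9% and 21.1% of all genes had one. All lactating libraries lay lower for 11 and 5 of the 19, as for 14.1% and 10.4% of all genes. The called marker was Cd68 (3-week log2 fold change -1.08, SE 0.20, adjusted p = 0.0150), which at 1 week stood at -0.96 (SE 0.19, adjusted p = 0.0417), inside the fold cutoff. Mpeg1, a pore-forming protein of macrophages, gave -1.39 (SE 0.35, adjusted p = 0.0816) and -1.45 (SE 0.36, adjusted p = 0.0621), while the scavenger receptor Cd163 gave 0.19 (SE 0.22, adjusted p = 0.671) and -0.08 (SE 0.22, adjusted p = 0.878). The summed macrophage marker level ran from 648 to 685 normalized CPM in 1wk SBI, 384 to 526 in 1wk SBI + Lac, 436 to 981 in 3wk SBI and 371 to 637 in 3wk SBI + Lac. The 981 was that of replicate 3 of 3wk SBI. Its group's other libraries, at 436 and 470, lay within the range of 3wk SBI + Lac. The 3-week marker differences are not given without that library, so how far they rest on it is not shown. Marco was at 0 in both 1-week groups. Their part in the C3ar1 result was not tested beyond the ratios, in which C3ar1 per 100 of the summed macrophage markers was 1.45 ± 0.266 against 0.969 ± 0.0650 at 1 week and 0.965 ± 0.169 against 0.544 ± 0.0754 at 3 weeks (SD, n = 3 each), lower in all lactating libraries. C1qa over the same sum overlapped, at 10.6 ± 1.68 against 11.0 ± 0.889 and 9.84 ± 0.602 against 10.1 ± 0.805 (SD, n = 3 each). With the median of the markers' log2 levels in place of their sum, the log2 lactation effect was 0.42 and 0.52 for the C1qa ratio and -0.22 and -0.35 for the C3ar1 ratio, so the size of both depends on how the markers are combined.

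Of 15 fibroblast and stromal markers, 13 averaged lower with lactation at each week (medians -0.35 and -0.49) and 0 were called in edgeR, beside 0.253% and 0.74% of all genes. An unadjusted p under 0.05 was seen in 3 and 7 of the 15, where 18.9% and 21.1% of all genes had one. The 3-week differences of these markers are not given without replicate 3 of 3wk SBI either. The summed level of the 15 ran from 7894 to 11545 normalized CPM in 1wk SBI, 4731 to 8632 in 1wk SBI + Lac, 3889 to 8638 in 3wk SBI and, lowest, 2383 to 3371 in 3wk SBI + Lac. Collagen genes made up most of this sum in 1wk SBI, where Col3a1, Col1a1 and Col1a2 averaged 3972, 2195 and 1484, so ratios to it mainly follow those genes. C1s per 100 of that sum was 2.39 ± 0.702 and 2.75 ± 0.508 at 1 week, with overlap, and 3.08 ± 0.409 and 4.35 ± 0.121 at 3 weeks (SD, n = 3 each), higher in all lactating libraries. With the median of the markers' log2 levels in place of their sum, the log2 difference turned from 0.22 to -0.61 at 1 week and from 0.51 to -0.01 at 3 weeks. The summed muscle fiber markers ran from 78790 to 125330 in 1wk SBI against 123460 to 148550 in 1wk SBI + Lac, with overlap. At 3 weeks they ran higher with lactation, from 120510 to 161050 against 175020 to 197420. This sum mainly follows Myh4, Acta1 and Ckm, which averaged 30664, 29259 and 12598 in 1wk SBI. Of 11 fiber markers tested, 11 averaged higher at 1 week, while 8 averaged higher and 3 lower at 3 weeks. In edgeR 0 were called, beside 0.253% and 0.74% of all genes. An unadjusted p under 0.05 was seen in 8 and 1 of the 11, beside 18.9% and 21.1%. Hepatocyte markers, which would mark liver as a source of C3 and Cfb, summed to 71.6 to 125 normalized CPM, nearly all of it Tf, which encodes transferrin (group means 89.0 to 108). Of the 10, 5 were at 0 in each group, though not the same 5, and Alb, which encodes albumin, averaged at most 0.0380. Neutrophil markers summed to at most 6.34 normalized CPM and lymphocyte markers to at most 10.3, and endothelial markers ran from 304 to 426. Adipocyte markers summed to 121 to 246. Mammary epithelium and milk markers summed to 0.726 to 2.68 without lactation. They summed to 1.31 to 3.76 in 1wk SBI + Lac and to 40.1, 11.6 and 0.660 in 3wk SBI + Lac, so that replicate 3 of the last lay below all non-lactating libraries. The caseins Csn2 and Csn1s1 averaged 0 and at most 0.0040 without lactation, and the sum there rests on Krt8, Krt18 and Epcam.

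The genes most like C1qa, C1s, C3, C3ar1 and Cfb were ranked over the 12 libraries by Pearson's r of log2 CPM, with the mean of each week removed, among 9199 genes with a symbol and a mean of at least 5 normalized CPM. For C1qa they were Ccl6 (0.97), Sh3bgrl (0.97), Csf1r (0.97), Dse (0.96) and Cfp (0.95). Ccl6 is a chemokine and Cfp encodes properdin, the stabilizer of the alternative route. For C1s they were C1r (0.95), its partner protease, Serping1 (0.95), which encodes the C1 inhibitor, Scara3 (0.95), Mob3a (0.95) and Lmo2 (0.95). For Cfb they were C7 (0.97), C4a (0.96), Serping1 (0.95), RT1-CE16 (0.94) and Cmklr1 (0.94), the first of which is a component of the membrane attack complex. For C3ar1 they were Ezr (0.98), Lhfpl2 (0.98), Mpeg1 (0.97), Chd3 (0.97) and Clec4a1 (0.97). For C3 the values were lower, at 0.91 for Rap1b, 0.86 for Arpc3 and 0.84 for Glipr2, Arhgap45 and Sp3. Among the members, C1qa correlated with C1s at 0.93, with Cfb at 0.88, with C3ar1 at 0.81 and with C3 at 0.75, and the lowest value of any pair was 0.43, between C3 and C3ar1.

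The rest of the pathway was followed in 42 further complement genes, of which 38 were in the table and 26 passed the low-count filter. At 1 week 22 of the 26 averaged lower and 4 higher with lactation, with a median log2 fold change of -0.27, and 0 were called in edgeR, where 0.253% of all genes were. Of the 26, 8 had an unadjusted p under 0.05, where 18.9% of all genes did. DESeq2 on all 12 libraries called 1 of them, Itgb2. At 3 weeks 21 averaged lower and 5 higher, with a median of -0.44, and 1 was called, Clu, which was higher, where 0.74% of all genes were called. At that week 9 had an unadjusted p under 0.05, against 21.1% of all genes. These 3-week values over the 26 genes are not given without replicate 3 of 3wk SBI, so how far they rest on it is not shown. Libraries did not overlap for 8 genes lower and 2 higher at 1 week and for 5 lower and 2 higher at 3 weeks, where such shares over all genes were 14.1% and 14.3% at 1 week and 10.4% and 11.9% at 3 weeks.

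Clu (ENSRNOG00000016460) encodes clusterin, which blocks assembly of the membrane attack complex and binds cell debris. It measured 330, 384 and 216 normalized CPM in 1wk SBI, against 371, 207 and 265 in 1wk SBI + Lac, which overlapped. At 3 weeks it measured 81.5, 86.9 and 84.3 without lactation and 190, 167 and 170 with lactation, with no overlap. The log2 fold change with lactation was -0.14 (SE 0.21, adjusted p = 0.750) at 1 week and 1.06 (SE 0.21, adjusted p = 0.0207) at 3 weeks. The difference of these 2 effects was 1.20 (SE 0.30, 95% interval 0.57 to 1.84, adjusted p = 0.727), which did not pass over all genes tested. Clu fell from 1 to 3 weeks by 1.88 on the log2 scale without lactation (SE 0.22, adjusted p = 0.00146), where the value with lactation was -0.67 (SE 0.21, adjusted p = 0.110). Its 3-week lactation call did not pass in 4 of the 6 fits that left out a library of that week, those without replicate 3 of 3wk SBI or any single library of 3wk SBI + Lac, with log2 fold changes over the 6 fits from 0.998, inside the fold cutoff (without replicate 1 of 3wk SBI + Lac), to 1.10.

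Cfi (ENSRNOG00000053400), factor I, the protease that inactivates C3b, was low in all groups and lowest at 3 weeks. It measured 4.61, 4.15 and 3.19 normalized CPM in 1wk SBI, then 2.59, 2.58 and 4.42 in 1wk SBI + Lac, then 1.39, 1.49 and 1.12 in 3wk SBI, and finally 1.43, 0.764 and 1.65 in 3wk SBI + Lac. From 1 to 3 weeks it fell by 1.62 on the log2 scale without lactation (SE 0.33, adjusted p = 0.0138) and by 1.43 with lactation (SE 0.33, adjusted p = 0.0404). Without lactation it lost the call when replicate 1 or 2 of 1wk SBI or replicate 2 of 3wk SBI was left out, and with lactation it lost it in each of the 6 fits that left out a library (adjusted p from 0.0587 to 0.219). With lactation against without, its groups overlapped at both weeks.

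The complement receptor integrins averaged lower with lactation. Itgb2 (ENSRNOG00000001224), the beta chain shared by complement receptors CR3 and CR4, measured 14.9, 16.8 and 14.1 normalized CPM in 1wk SBI, against 7.93, 4.92 and 8.96 in 1wk SBI + Lac, with no overlap, and its log2 fold change of -1.06 (SE 0.29, adjusted p = 0.0879) did not pass. At 3 weeks the libraries overlapped, at 10.1, 14.1 and 20.7 against 6.68, 11.1 and 5.50. Itgax (ENSRNOG00000036703), the alpha chain of CR4, gave -1.29 (SE 0.50, adjusted p = 0.177) and -1.45 (SE 0.52, adjusted p = 0.129). Its level was at most 3.00 normalized CPM in any library and was lower in all lactating libraries of each week.

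Among components, C6 (ENSRNOG00000024115), part of the membrane attack complex, measured 19.8, 20.1 and 15.8 normalized CPM in 1wk SBI, against 11.2, 8.24 and 10.8 in 1wk SBI + Lac. Its log2 fold change was -0.88 (SE 0.41, adjusted p = 0.273) at 1 week and -1.08 (SE 0.42, adjusted p = 0.172) at 3 weeks, where replicate 3 of 3wk SBI alone held 38.0 against 15.7 and 8.67 in its group and the value without it was -0.22. Without replicate 2 of 3wk SBI C6 was called, at -1.44 (SE 0.28, adjusted p = 0.0275). C4a (ENSRNOG00000066573), the C4 substrate of C1s, gave -1.31 (SE 0.62, adjusted p = 0.270) at 3 weeks, from 110, 65.8 and 239 to 50.3, 93.1 and 22.2 normalized CPM, and its value without that library was -0.64. C4a has a near-identical copy, C4b, so its share of reads is uncertain. Masp1 (ENSRNOG00000001827), a protease of the lectin route, was chosen after its values were seen because it ran against most of the rest. It measured 77.2, 66.0 and 119 in 1wk SBI against 151, 132 and 130 in 1wk SBI + Lac, and 105, 143 and 99.1 against 209, 179 and 179 at 3 weeks. It lay higher in all lactating libraries of each week without passing the test, at 0.66 (SE 0.19, adjusted p = 0.0987) and 0.71 (SE 0.19, adjusted p = 0.0647). Masp1 was 1 of 4 pathway genes of the 26 that averaged higher at 1 week and of 5 at 3 weeks. Cd55 was another, at 0.36 at 1 week (SE 0.12, adjusted p = 0.123, edgeR), higher in all lactating libraries of that week.

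**Figure D4:**
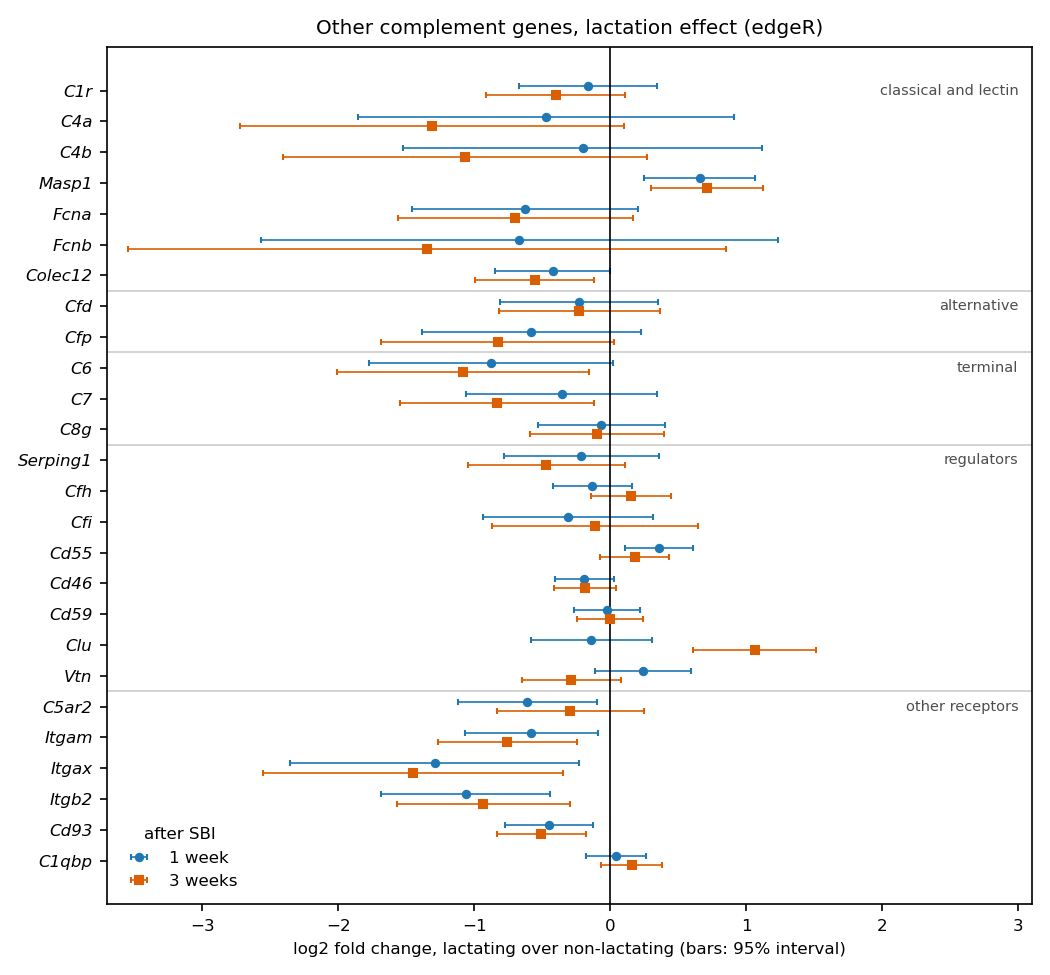
Log2 fold change of the 26 other complement genes tested, lactating over non-lactating (horizontal axis), at 1 week (blue circles) and 3 weeks (orange squares) with 95% intervals, grouped by role. Most points lie below 0, and Clu at 3 weeks (1.06) and Masp1 at both weeks (0.66 and 0.71) lie highest. The 3-week points include replicate 3 of 3wk SBI.

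**Figure D5:**
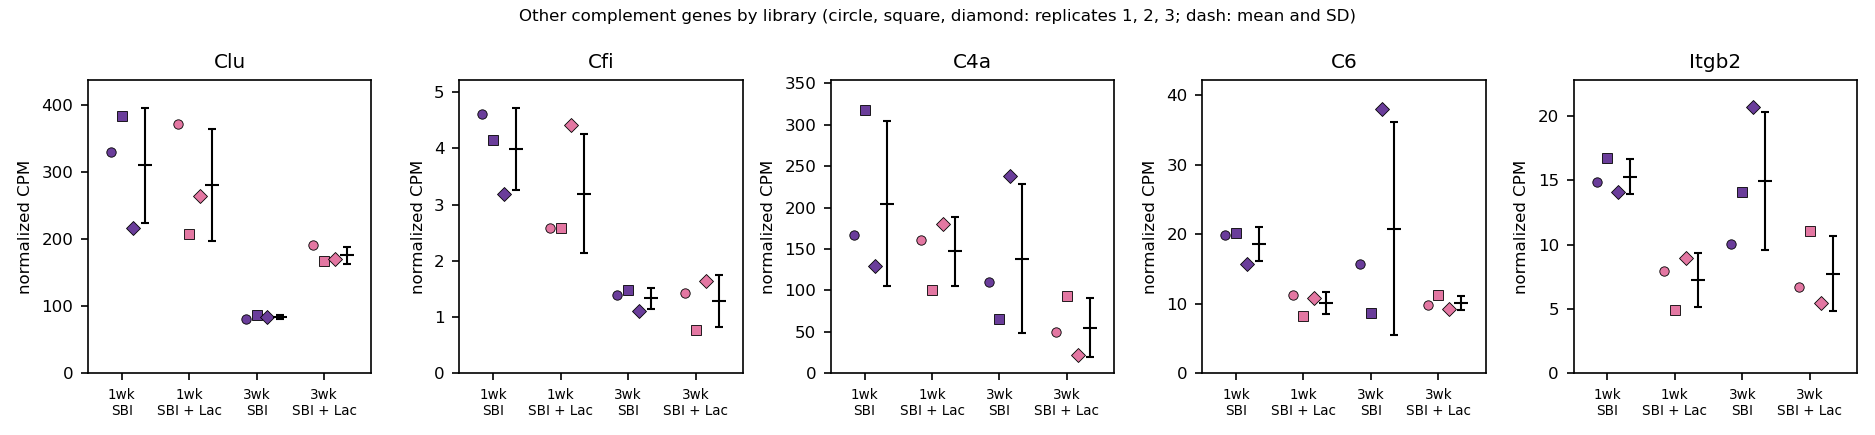
Normalized CPM of Clu, Cfi, C4a, C6 and Itgb2 in each of the 12 libraries (vertical axes from 0), with the mean and SD of 3 libraries beside the points. The 3 lactating Clu libraries at 3 weeks (167 to 190) lie above the non-lactating ones (81.5 to 86.9), and Cfi is lower at 3 weeks than at 1 week in both groups.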

How the data were processed

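Pubocaudalis RNA of 12 pools of 2 rats was prepared with a stranded mRNA kit and sequenced paired-end. The authors deposited 1 table of unnormalized values for 30206 genes, 4319 of them without a symbol. Per the deposited table, values at 1 week are whole counts. Values at 3 weeks, as the authors deposited them, carry decimals and were taken as estimated counts, which were rounded for the tests, although the design had assumed whole counts. The submitters' processing notes name Salmon. The aligner, genome build and annotation are not given in the sources used here. Columns were matched to samples by the column names in the labels.

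Counts were scaled by TMM and filtered with filterByExpr, and all 4 groups were fitted in 1 robust quasi-likelihood model in edgeR 4.0.16 (R 4.3.3), with Benjamini-Hochberg adjustment over 14599 genes and cutoffs of 0.05 and an absolute log2 fold change of 1. The fit was tested on simulated data. Correlations used log2 CPM with a prior count of 2. Ratios divide normalized CPM within a library. Replicate libraries of a group were not copies (chi-square over its degrees of freedom 20.9 to 100.6). The labels name different rats for each pool, and p-values measure the spread between pools.

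The members and gene lists were chosen with earlier results of these data known. Named genes are every member, pathway genes called in any comparison, and in each lactation comparison the 3 pathway genes that differed most on the log2 scale among those reaching an average of 1 normalized CPM in some group. Most-like genes are the 5 highest by r. Marker lists were macrophage and monocyte, fibroblast and stroma, neutrophil, T and B lymphocyte, endothelium, adipocyte, hepatocyte, muscle fiber, and mammary and milk genes. Alternatives were RLE scaling, no low-count filter, DESeq2 1.42.0 (on all 12 libraries or those of a time point), only the libraries compared, a block for the replicate number, the adjusted p alone, and each library left out. The study's other measurements were not analysed here. Promoter sequences and gene order came from RefSeq tables of GRCr8, and no genome of the counts' build was used.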

Additional observations from a re-analysis of the deposited data

How the results depend on the processing

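The number of complement members called with lactation at 1 week, 0, became 1 (C3ar1) without the low-count filter, in DESeq2 on all 12 libraries or on the 6 of the time point, and in edgeR with only the libraries compared, and it ranged from 0 to 1 when 1 library was left out (1 without replicate 3 of 1wk SBI). At 3 weeks the number, 1, became 0 with only the libraries compared and with a block for the replicate number (C3ar1 adjusted p = 0.0963, edgeR), and ranged from 0 to 1 over the left-out libraries. Between weeks without lactation it ranged from 0 to 1. The cause of these changes was not tested.

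With the median of log2 marker levels in place of their sum, the log2 lactation effects on the ratios moved at 1 and 3 weeks to 0.42 and 0.52 for C1qa over macrophage markers, -0.22 and -0.35 for C3ar1 over macrophage markers, and -0.61 and -0.0143 for C1s over fibroblast markers. Under the block for the replicate number C1qc's difference of effects turned to 0.0414 and C3's change between weeks without lactation to -0.14, the latter also turning to -0.0172 in DESeq2 on all 12 libraries. Same-numbered libraries did not deviate together (r from -0.23 to -0.05). With 3 libraries per group, each centred on its group mean, these values do not settle whether the numbers pair libraries. The block also took the call of Cfi between weeks with lactation, and it left 3 lower and 5 higher calls over all genes at 1 week, against 24 and 13, and 39 and 25 at 3 weeks, against 78 and 30.

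Over left-out libraries the sign turned within these ranges of log2 fold change. Lactation at 3 weeks: C1qa -0.59 to 0.0894, C1qb -0.55 to 0.19, C1qc -0.44 to 0.20, C1s -0.49 to 0.0125 and C3 -1.12 to 1.498. Difference of effects: C1qa -0.12 to 0.55, C1qb -0.17 to 0.57, C1qc -0.23 to 0.41, C1s -0.11 to 0.47, C3 -0.29 to 2.33, C3ar1 -0.33 to 0.32 and Cfb -0.85 to 0.0543. Between weeks without lactation: C1qa -0.66 to 0.0152, C1qb -0.60 to 0.15, C1qc -0.48 to 0.16 and C3 -1.50 to 0.73. Between weeks with lactation: C1qa -0.30 to 0.0621, C1qb -0.18 to 0.12, C1qc -0.22 to 0.053 and C3 -0.21 to 1.27. C3ar1 kept its sign under lactation, from -1.23 to -0.96 at 1 week and from -1.43 to -0.78 at 3 weeks. Its libraries did not overlap, so that sign was all but fixed. Over results and alternatives, 666 values kept their direction and their side of the threshold (for ratios and counts, stayed close). Of gene fold changes, 51 changed sign, 21 lost a call and 11 gained one, while 19 ratios or counts moved. Changes of sign in ratios are not among the 51. Over left-out libraries the log2 difference of C1qa over C1s ran from -0.17 to 0.0489 at 1 week and from -0.12 to 0.074 at 3 weeks. That of C1qa over macrophage markers ran from -0.0727 to 0.146 and from -0.0133 to 0.1008. Some of the 666 could not have changed. RLE scaling leaves a ratio within a library as it is, and the adjusted p alone keeps the main fold changes. C3ar1 counts of 16, 36, 79 and 88 in 4 of the 3-week libraries limit its precision there.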

Other observations

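C1s and its partner C1r, neighbours on the chromosome that correlated at 0.95, did not keep a fixed ratio at 1 week. C1s stood at 142 ± 10.1 per 100 of C1r in 1wk SBI, against 117 ± 5.58 in 1wk SBI + Lac (SD, n = 3 each), lower in all lactating libraries, and at 113 ± 4.70 and 121 ± 4.09 at 3 weeks, where they overlapped. This ratio was chosen after its values were seen and carries no test. C1s over Pdgfra, a receptor of fibroblasts, overlapped at both weeks, at 266 ± 54.3 and 231 ± 34.5 per 100 at 1 week and 217 ± 53.0 and 199 ± 24.2 at 3 weeks (SD, n = 3 each). Cd55, which speeds the decay of complement convertases, gave a log2 fold change of 0.53 from 1 to 3 weeks without lactation (SE 0.12, adjusted p = 0.0203, edgeR), inside the fold cutoff. That comparison mixes time with the way reads were counted.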
